A study of Mus musculus with 4 samples.

Results

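The genes described here are 32 markers of cells other than mast cells: 11 of T cells and innate lymphoid cells, 12 of intestinal epithelium and 9 of macrophages. The list was selected on cell type and with knowledge of the log2 values on these 4 arrays, so the levels below are a description and carry no test. A probe set that carried the gene's symbol alone was found for 31 of them, 10 lymphoid, 12 epithelial and 9 macrophage genes, out of 22180 genes so measured in all. Cd247, the zeta chain of the T cell receptor complex, had none.

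The study compared 4 preparations of mast cells from BALB/c mice, with 1 array for each. Intestinal mast cells came from small intestinal lamina propria of naive animals and were sorted by flow cytometry on FceRI and c-Kit. Bone marrow-derived mast cells (BMMCs) had been grown for 3 to 4 weeks in interleukin-3 and stem cell factor (10 ng/ml each), and then spent 6 days with CHO cells (a Chinese hamster ovary line) expressing the mouse Notch ligand Dll1, with TGF-beta1 at 5 ng/ml, or in normal medium as the control. After the Dll1 coculture, cells positive for c-Kit were taken with magnetic beads; no selection is named for the TGF-beta1 and control cultures. The labels give neither the number of mice behind a preparation nor what else passed a gate.

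T cells carry an antigen receptor whose signal runs through the CD3 chains, and cytotoxic lymphocytes kill with granzymes and perforin stored in granules. Innate lymphoid cells lack the CD3 complex at the surface but share many of the other genes, and the gut lamina propria and epithelium hold large numbers of both. Enterocytes and goblet cells line the gut and are known for fatty acid-binding proteins and for mucin with trefoil peptides. Gut macrophages make the complement component C1q and depend on the receptor Csf1r. Mast cells share some of this equipment, since they too store serine proteases, granzyme B among them in mouse.

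The values are log2 levels, and single genes are compared between arrays, never with each other. A sum of linear levels over a list, where given, weighs each gene by the brightness of its probe set and is read between arrays only. Detection was judged from 1443 probe sets of chemosensory receptor genes (olfactory, vomeronasal and taste), and the 95th percentile of their values served as each array's background limit. This limit was 5.11 for the intestinal, 5.13 for the Dll1, 5.21 for the TGF-beta1 and 5.12 for the control array. A gene is called higher or lower where at least 1 of the 2 arrays is above its limit and the difference reaches 2-fold after values under the limit are set to the limit. Where only 1 of the 2 is above, the fold is a bound and is given as "at least". With 1 array a group there is no error between replicates and no test. As a gauge of technical spread, log2 differences were compared between the probe sets of genes with 2. Only the 309 to 329 genes with both probe sets above the limit on both arrays were used. The gauge is the standard deviation of the gap between the 2 differences, divided by the square root of 2. It was 0.48 for intestinal minus control, 0.34 for Dll1 minus control and 0.24 for TGF-beta1 minus control. It was 0.39 for intestinal minus Dll1 and 0.43 for intestinal minus TGF-beta1. Genes under the limit are not covered by it. In such bulk RNA, fewer cells of a type and less RNA per cell cannot be told apart.

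The genes behind the intestinal sort were high in all 4 preparations. Kit, the stem cell factor receptor, read 11.75 in intestinal mast cells, 12.54 with Dll1, 12.22 with TGF-beta1 and 12.65 in control BMMCs. Fcer1a and Ms4a2, the alpha and beta chains of the IgE receptor, read 11.66 and 9.98 in intestinal mast cells and 12.41 and 10.85 in the control, and Cpa3, the mast cell carboxypeptidase, read 12.76 and 13.06. The granule proteases were not level. Of 15 mast cell genes, 3 were at least 2-fold higher in intestinal mast cells than in the control (Mcpt1, Mcpt2 and Mcpt4). Another 3 were lower (Tpsb2, Cma1 and Slc18a2, the last 2 named after their values were seen). Over all genes, 2.57% were higher and 3.86% lower. Mcpt1, a chymase of mucosal mast cells, read 12.72 in intestinal mast cells, 12.46 with Dll1, 12.41 with TGF-beta1 and 4.82 in the control, whereas Tpsb2, a tryptase of connective tissue mast cells, read 6.21, 11.83, 11.78 and 11.55. Mcpt2 read 12.33, 11.74, 12.35 and 5.75 on the same arrays, and Mcpt4 10.41, 10.15, 5.04 and 4.53. The chymase Cma1 read 7.16 in intestinal mast cells and 12.12 in the control, and Slc18a2, a vesicular monoamine transporter, 9.83 and 11.60. All 15 were above the limit on the intestinal and Dll1 arrays, 14 with TGF-beta1 and 13 in the control. Over all genes, 50.7% to 55.6% were above it on each array.

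More markers were above the background limit in intestinal mast cells than in any culture. It showed 25 of the 31 markers above the limit, against 15 with Dll1, 10 with TGF-beta1 and 13 in control BMMCs; over all genes the shares were 54.7% on the intestinal array, 55.6% with Dll1, 50.7% with TGF-beta1 and 52.6% in the control. Of the 31, 10 (Cd3d, Cd3e, Cd3g, Fabp1, Fabp2, Tff3, Krt20, Cdh17, C1qb and Csf1r) were above it on the intestinal array alone, a pattern shown by 1.95% of all genes. On all 4 arrays 9 were above it, as were 47.3% of all genes, and 6 were above it on none, as were 39.9%. Of the remaining 6 markers, all were above the limit on the intestinal and Dll1 arrays.

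**Figure D1:**
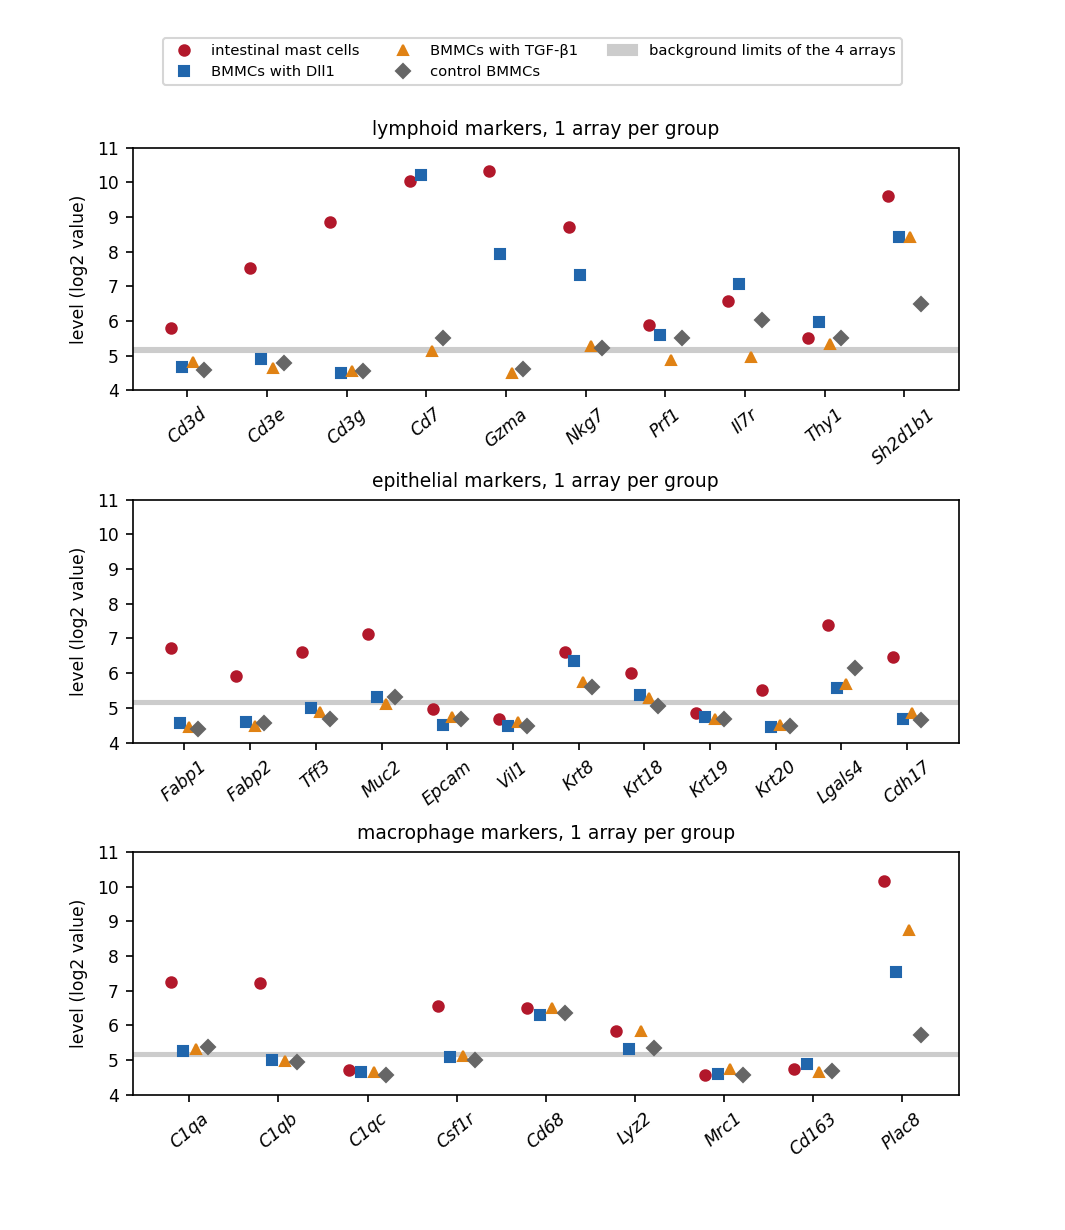
Level of each marker gene (log2 value, vertical axis) on the intestinal, Dll1, TGF-beta1 and control arrays, with 1 point for each array and panels for the lymphoid, epithelial and macrophage genes; the grey band spans the 4 background limits, 5.11 to 5.21. The intestinal points of Cd3e, Cd3g and Gzma stand well above the control points, whereas Epcam, Vil1, Krt19, C1qc, Mrc1 and Cd163 lie under the limits on every array.

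Set against control BMMCs, 16 of the 31 markers were at least 2-fold higher in intestinal mast cells and none was lower; over all 22180 genes, 2.57% were higher and 3.86% lower. The median difference of the markers was 1.24 on the log2 scale and that of all genes was 0.00. Dll1 coculture had 6 of 31 higher and none lower, against 0.942% and 1.02% of all genes, with medians of 0.09 for the markers and 0.02 for all genes. The split over all genes, 209 higher and 227 lower with Dll1, became 175 and 316 with array medians subtracted. TGF-beta1 had 2 of 31 higher and none lower, against 0.275% and 0.482% of all genes, with medians of 0.06 and 0.01. The 3 comparisons share the control array.

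**Figure D2:**
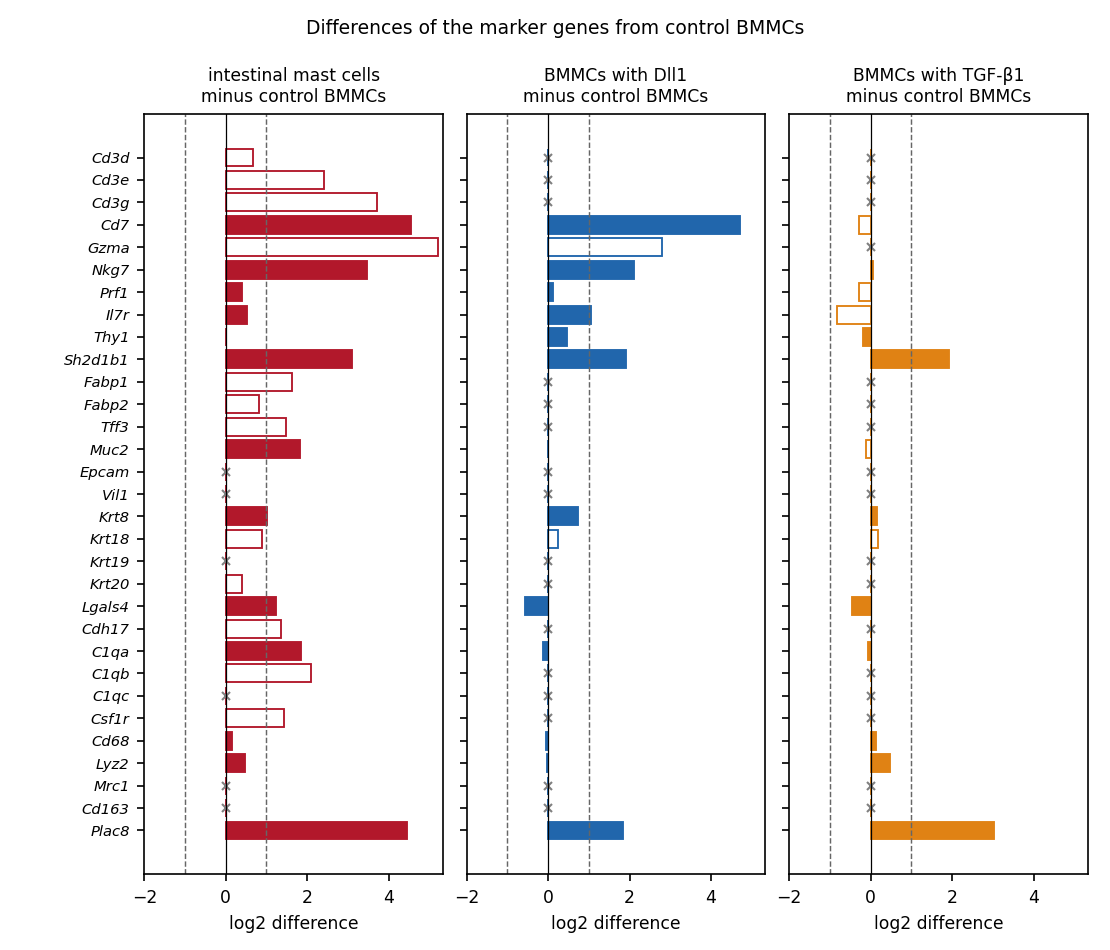
Log2 difference of each marker gene from control BMMCs (horizontal axis) for intestinal mast cells, BMMCs with Dll1 and BMMCs with TGF-beta1, with 1 array a group and dashed lines at a 2-fold difference. Filled bars were measured above the limit on both arrays, open bars are bounds, and crosses mark genes under the limit on both; Sh2d1b1 and Plac8 pass 2-fold in all 3 panels.

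The CD3 genes, which encode signalling chains of the T cell receptor complex, were above the limit in intestinal mast cells and below it in every culture. Cd3g read 8.84 on the intestinal array, against 4.51 with Dll1, 4.56 with TGF-beta1 and 4.55 in the control, and was at least 13.2-fold higher than in the control. Cd3e read 7.53, against 4.90 with Dll1, 4.66 with TGF-beta1 and 4.80 in the control, a difference of at least 5.34-fold. Cd3d read 5.79, against 4.68, 4.82 and 4.59 in the same cultures, which is at least 1.59-fold and falls short of 2-fold. With no background limit, the measured Cd3d difference was 1.19 on the log2 scale and passed. The intestinal sort used FceRI and c-Kit and no lymphoid marker is named for it.

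Cytotoxic granule genes divided into those seen on the Dll1 array as well and those near the limit. Gzma, granzyme A, a serine protease of cytotoxic lymphocytes, read 10.33 in intestinal mast cells and 7.92 with Dll1, against 4.50 with TGF-beta1 and 4.62 in the control, both below the limit. It was at least 37.1-fold higher than in the control in intestinal mast cells and at least 7.0-fold higher with Dll1. Nkg7, a membrane protein of cytotoxic granules, read 8.70 in intestinal mast cells, 7.34 with Dll1, 5.29 with TGF-beta1 and 5.23 in the control, so that it was 11.1-fold higher in intestinal mast cells and 4.32-fold higher with Dll1. Both genes thus rank the arrays alike, with intestinal above Dll1 and the other cultures near or under the limit. Prf1, perforin, which forms pores in target cells, read 5.89, 5.61, 4.88 and 5.50 on the intestinal, Dll1, TGF-beta1 and control arrays. Prf1 was not called higher or lower in any of the 5 comparisons made. Its TGF-beta1 value lay under the limit, so the intestinal excess over that culture is a bound, at least 1.61-fold. With no background limit, or with the offset subtracted, that difference passed 2-fold.

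Cd7, a surface protein of T cells and innate lymphoid cells, was as high with Dll1 as in the tissue cells. It read 10.05 in intestinal mast cells and 10.20 with Dll1, against 5.14 with TGF-beta1, below the limit, and 5.50 in the control. The excess over the control was 23.4-fold in intestinal mast cells and 26.0-fold with Dll1. The intestinal array differed from the Dll1 array by -0.15 on the log2 scale, less in size than the technical gauge of 0.39. Cd3e, Cd3g and Cd3d stayed below the limit on that Dll1 array.

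Il7r, the interleukin-7 receptor chain that lymphocytes need to develop and survive, was the 1 marker called higher with Dll1 and not in intestinal mast cells. It read 6.56 in intestinal mast cells, 7.08 with Dll1, 4.96 with TGF-beta1 and 6.03 in the control. The Dll1 culture was 2.06-fold higher than the control, just past 2-fold, and with array medians subtracted this difference was 0.96 on the log2 scale and no longer passed. The TGF-beta1 culture was at least 1.77-fold lower, and without the limit the difference was -1.07 and passed. Thy1, a surface glycoprotein of mouse T cells and of some stromal cells, read 5.52, 5.97, 5.32 and 5.51 in the order intestinal, Dll1, TGF-beta1 and control, with no difference of 2-fold.

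Sh2d1b1, which encodes EAT-2, an adaptor of SLAM-family receptors in natural killer cells, was the 1 lymphoid marker at least 2-fold over the control on each of the other arrays. It read 9.61 in intestinal mast cells, 8.41 with Dll1 and 8.42 with TGF-beta1, against 6.50 in the control. These levels were 8.61-fold, 3.77-fold and 3.77-fold over the control for intestinal, Dll1 and TGF-beta1. A close relative, Sh2d1b2, lies in the mouse genome, and shared probe signal between them was not tested. The 10 lymphoid genes together summed to 4438 on the linear scale in intestinal mast cells, 2246 with Dll1, 616.2 with TGF-beta1 and 429.6 in the control, where 10 genes exactly at the limit would give 345.8 to 370.2. All 10 were above the limit in intestinal mast cells, 7 with Dll1, 3 with TGF-beta1 and 6 in the control. Over all genes the shares on the same arrays were 54.7%, 55.6%, 50.7% and 52.6%, so the Dll1 and control counts lie near them.

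Promoters are shown for the genes at least 2-fold over the control with Dll1, Plac8 of the macrophage list included, and for the CD3 genes, which were below the limit there, so that both sets can be read side by side. RefSeq sequence of GRCm38.p6, from 250 bases before to 50 bases after the annotated start, was at hand for 25 of the 32 markers; Cd7 is not in that table. Where a gene has several starts there, as Plac8 does, the one listed first is used. Each is printed 5′ to 3′ on the gene's strand. Capitals mark matches, on either strand, to any of 4 short motifs. The letters TGGGAA are the core of sites bound by RBPJ, the DNA-binding partner of Notch. The letters CAGAC are a SMAD-binding element. The letters TGTGGT are the core bound by RUNX factors. The letters AGATAA are read by zinc finger factors such as Gata2 of mast cells.
Gzma, chr13:113100932-113101231, minus strand: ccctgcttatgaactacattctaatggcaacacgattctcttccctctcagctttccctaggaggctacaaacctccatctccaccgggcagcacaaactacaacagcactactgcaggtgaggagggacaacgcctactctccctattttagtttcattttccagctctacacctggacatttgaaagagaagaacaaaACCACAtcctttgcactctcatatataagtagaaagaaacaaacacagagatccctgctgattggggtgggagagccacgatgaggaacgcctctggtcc
Nkg7, chr7:43436888-43437187, plus strand: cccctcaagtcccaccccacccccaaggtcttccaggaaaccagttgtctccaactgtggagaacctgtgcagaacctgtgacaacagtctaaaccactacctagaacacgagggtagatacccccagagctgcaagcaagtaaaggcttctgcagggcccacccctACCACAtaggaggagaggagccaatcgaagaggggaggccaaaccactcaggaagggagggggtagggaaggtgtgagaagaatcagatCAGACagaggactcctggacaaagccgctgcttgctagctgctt
Il7r, chr15:9529827-9530126, minus strand: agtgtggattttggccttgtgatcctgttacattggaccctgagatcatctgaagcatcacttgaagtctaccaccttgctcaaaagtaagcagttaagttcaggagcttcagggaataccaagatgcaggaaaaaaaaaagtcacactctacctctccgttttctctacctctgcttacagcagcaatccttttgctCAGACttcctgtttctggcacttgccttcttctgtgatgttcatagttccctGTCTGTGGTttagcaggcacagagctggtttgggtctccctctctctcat
Sh2d1b1, chr1:170277068-170277367, plus strand: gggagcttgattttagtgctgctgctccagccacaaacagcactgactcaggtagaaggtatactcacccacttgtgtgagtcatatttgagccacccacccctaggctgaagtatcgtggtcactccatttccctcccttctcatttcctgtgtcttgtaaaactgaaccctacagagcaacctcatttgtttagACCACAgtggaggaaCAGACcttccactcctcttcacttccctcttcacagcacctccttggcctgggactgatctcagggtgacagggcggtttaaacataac
Plac8, chr5:100572156-100572455, minus strand: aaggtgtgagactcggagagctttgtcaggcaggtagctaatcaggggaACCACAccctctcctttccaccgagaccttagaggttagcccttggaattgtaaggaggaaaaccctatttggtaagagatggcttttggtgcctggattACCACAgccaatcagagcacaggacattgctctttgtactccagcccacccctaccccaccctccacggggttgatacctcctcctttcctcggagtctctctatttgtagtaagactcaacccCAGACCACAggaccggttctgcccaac
Cd3g, chr9:44980382-44980681, minus strand: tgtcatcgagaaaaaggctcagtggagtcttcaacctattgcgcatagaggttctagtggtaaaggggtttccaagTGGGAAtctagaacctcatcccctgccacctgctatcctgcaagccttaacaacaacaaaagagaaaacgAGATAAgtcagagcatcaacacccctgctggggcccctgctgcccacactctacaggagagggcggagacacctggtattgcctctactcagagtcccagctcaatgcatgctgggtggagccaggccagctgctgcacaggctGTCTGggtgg
Cd3d, chr9:44981536-44981835, plus strand: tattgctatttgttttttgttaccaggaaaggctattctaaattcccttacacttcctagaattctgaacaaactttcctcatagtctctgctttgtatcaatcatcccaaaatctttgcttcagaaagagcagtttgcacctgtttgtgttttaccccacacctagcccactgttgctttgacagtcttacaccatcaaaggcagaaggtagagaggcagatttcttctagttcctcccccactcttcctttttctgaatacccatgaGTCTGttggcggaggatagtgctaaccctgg
Cd3e, chr9:45009562-45009861, minus strand: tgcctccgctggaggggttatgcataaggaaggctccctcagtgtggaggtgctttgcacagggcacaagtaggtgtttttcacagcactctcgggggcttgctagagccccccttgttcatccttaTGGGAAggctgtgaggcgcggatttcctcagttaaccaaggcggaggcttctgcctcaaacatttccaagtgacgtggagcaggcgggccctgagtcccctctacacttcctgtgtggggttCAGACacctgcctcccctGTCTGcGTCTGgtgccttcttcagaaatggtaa

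TGTGGT or its complement was present in the windows of Gzma, Nkg7, Il7r, Sh2d1b1 and Plac8, the 5 genes with a promoter at hand that were at least 2-fold over the control with Dll1, and in none of the 3 CD3 windows. Of all 32851 promoter windows, 16.8% held it, as did 9 of the 25 marker windows. TGGGAA was in the Cd3g and Cd3e windows and in none of those 5, against 25.6% of all windows. CAGAC was in every window shown but that of Gzma, and in 49.6% of all windows, while AGATAA was in that of Cd3g alone among the 8, against 11.2% of all. In the Il7r and Plac8 windows a CAGAC match and a TGTGGT match overlap by 2 bases each. The motifs and the windows shown were chosen after the array values were known, so the split between the 2 sets carries no test. The 3 CD3 windows also lie near each other on 1 chromosome. A match shows only that the letters are present.

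Epithelial markers were divided. Fabp1 of absorptive cells and Tff3 and Muc2 of goblet cells were at least 2-fold over the control in intestinal mast cells. Fabp2 and Krt20 of absorptive cells were not called, and Epcam, Vil1 and Krt19 were below the limit on every array. With no background limit, the measured Fabp2 and Krt20 differences from the control were 1.36 and 1.04 on the log2 scale and passed. Fabp1, the liver-type fatty acid-binding protein made by enterocytes, read 6.73 in intestinal mast cells, against 4.57 with Dll1, 4.45 with TGF-beta1 and 4.39 in the control, at least 3.07-fold over the control. Fabp2, the intestinal form, read 5.93, against 4.60, 4.49 and 4.57, at least 1.75-fold. The cultures lay below the limit for both genes.

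Products of goblet cells were above control as well. Muc2, the main secreted mucin, read 7.14 in intestinal mast cells, 5.31 with Dll1, 5.10 with TGF-beta1 and 5.32 in the control, a 3.52-fold excess over the control. Its other probe set read 7.21 in intestinal mast cells, against 4.89, 4.72 and 4.54 in the same cultures, and showed the same ordering of the tissue cells over the cultures. Tff3, the trefoil peptide secreted with mucin, read 6.60, against 4.99, 4.88 and 4.69, at least 2.80-fold.

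Of the adhesion and cytoskeletal genes, Cdh17, a cadherin of gut epithelium, read 6.47 in intestinal mast cells, against 4.68 with Dll1, 4.84 with TGF-beta1 and 4.64 in the control, at least 2.56-fold. Lgals4, the galectin of enterocytes, was above the limit on every array, at 7.39 in intestinal mast cells, 5.57 with Dll1, 5.67 with TGF-beta1 and 6.14 in the control. Its intestinal excess was 2.37-fold over the control and 3.53-fold over the Dll1 culture. Lgals4 was thus above the limit also in cells grown from bone marrow alone.

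Epcam, the pan-epithelial adhesion molecule, read 4.98, 4.51, 4.73 and 4.67 on the intestinal, Dll1, TGF-beta1 and control arrays, below the limit on each. Vil1, villin of the brush border, read 4.69, 4.48, 4.59 and 4.48, and Krt19, a keratin of simple epithelium, read 4.84, 4.73, 4.67 and 4.69. These 3 defining genes were therefore not detected on any array. Krt20, a keratin of mature enterocytes, was just over the limit in intestinal mast cells at 5.51 and below it in the cultures, at 4.46 with Dll1, 4.51 with TGF-beta1 and 4.47 in the control.

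The keratin pair Krt8 and Krt18, which polymerise with each other in simple epithelium, were seen beyond the tissue cells. Krt8 was above the limit on all 4 arrays and Krt18 on all but the control array. Krt8 read 6.61 in intestinal mast cells, 6.35 with Dll1, 5.76 with TGF-beta1 and 5.60 in the control, a 2.01-fold intestinal excess at the edge of the rule. With array medians subtracted it was 0.95 on the log2 scale and did not pass. Krt18 read 6.00, 5.36, 5.28 and 5.06 in the same order, and its other probe set was below the limit on every array, between 4.49 and 4.72. In all, 6 of 12 epithelial genes were at least 2-fold over the control in intestinal mast cells, against 2.57% of all genes. None was in either culture, where 0.942% of all genes passed with Dll1 and 0.275% with TGF-beta1. The linear levels of the 12 genes summed to 954.2 in intestinal mast cells, 408.4 with Dll1, 379.9 with TGF-beta1 and 383.8 in the control. On the same arrays 12 genes exactly at the limit would give 414.9, 419.7, 444.3 and 416.3, so each culture sum lay under that level. With the limit at the 99th percentile, Fabp1, Tff3, Krt8 and Cdh17 no longer passed 2-fold over the control.

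Macrophage markers fell into a detected and an undetected set even within the complement component C1q, whose A, B and C chains assemble together. C1qa read 7.24 in intestinal mast cells, 5.25 with Dll1, 5.31 with TGF-beta1 and 5.38 in the control, 3.62-fold over the control. C1qb read 7.21, against 4.99, 4.98 and 4.95 in the same cultures, at least 4.27-fold over the control. C1qc stayed below the limit, at 4.71, 4.66, 4.65 and 4.57 on the intestinal, Dll1, TGF-beta1 and control arrays, so 2 of the 3 chains were seen in intestinal mast cells and the C chain was not.

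Csf1r, the receptor for the macrophage growth factor CSF1, read 6.55 in intestinal mast cells, against 5.07 with Dll1, 5.12 with TGF-beta1 and 5.01 in the control, at least 2.70-fold. That call was lost with the limit at the 99th percentile. The mannose receptor Mrc1 and the haemoglobin scavenger receptor Cd163, genes of resident macrophages, were below the limit on all 4 arrays, at 4.57 to 4.75 for Mrc1 and 4.66 to 4.87 for Cd163.

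Cd68, a lysosomal membrane protein used as a macrophage marker, was above the limit on every array and nearly level, at 6.50 in intestinal mast cells, 6.29 with Dll1, 6.49 with TGF-beta1 and 6.36 in the control. Lyz2, the lysozyme of myeloid cells, read 5.84 in intestinal mast cells, 5.32 with Dll1, 5.83 with TGF-beta1 and 5.35 in the control. Neither differed by 2-fold in any of the 5 comparisons. Lyz2 has a near-identical neighbour, Lyz1, and how far their probes cross-react was not tested.

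Plac8, a small cysteine-rich protein of myeloid and lymphoid cells, stood apart from the other genes in its list. It read 10.17 in intestinal mast cells, 7.55 with Dll1, 8.74 with TGF-beta1 and 5.71 in the control. The excess over the control was 22.0-fold in intestinal mast cells, 3.57-fold with Dll1 and 8.14-fold with TGF-beta1, and it was the 1 macrophage-list gene at least 2-fold over the control in either culture. Of the 9 genes, 4 were higher in intestinal mast cells than in the control, against 2.57% of all genes. The linear levels of the 9 genes summed to 1771 in intestinal mast cells, 487.5 with Dll1, 756.5 with TGF-beta1 and 353.3 in the control. Without Plac8, left out after its values were seen, the sums were 617.4 in intestinal mast cells, 300.6 with Dll1, 330.1 with TGF-beta1 and 301 in the control, where 8 genes at the limit would give 276.6 to 296.2.

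Set directly against the Dll1 culture, intestinal mast cells had 14 of 31 markers higher and none lower, against 2.09% and 2.43% of all genes. They were 5 of 10 lymphoid, 5 of 12 epithelial and 4 of 9 macrophage genes. Plac8 was 6.17-fold, Gzma 5.29-fold, Nkg7 2.56-fold and Sh2d1b1 2.28-fold higher in intestinal mast cells than with Dll1, whereas Cd7, Il7r, Prf1 and Thy1 did not differ by 2-fold. Against the TGF-beta1 culture 16 of 31 were higher and none lower, against 2.29% and 2.58% of all genes. Cd7 was at least 28.6-fold, Gzma at least 34.7-fold and Il7r at least 2.56-fold higher there in intestinal mast cells.

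**Figure D3:**
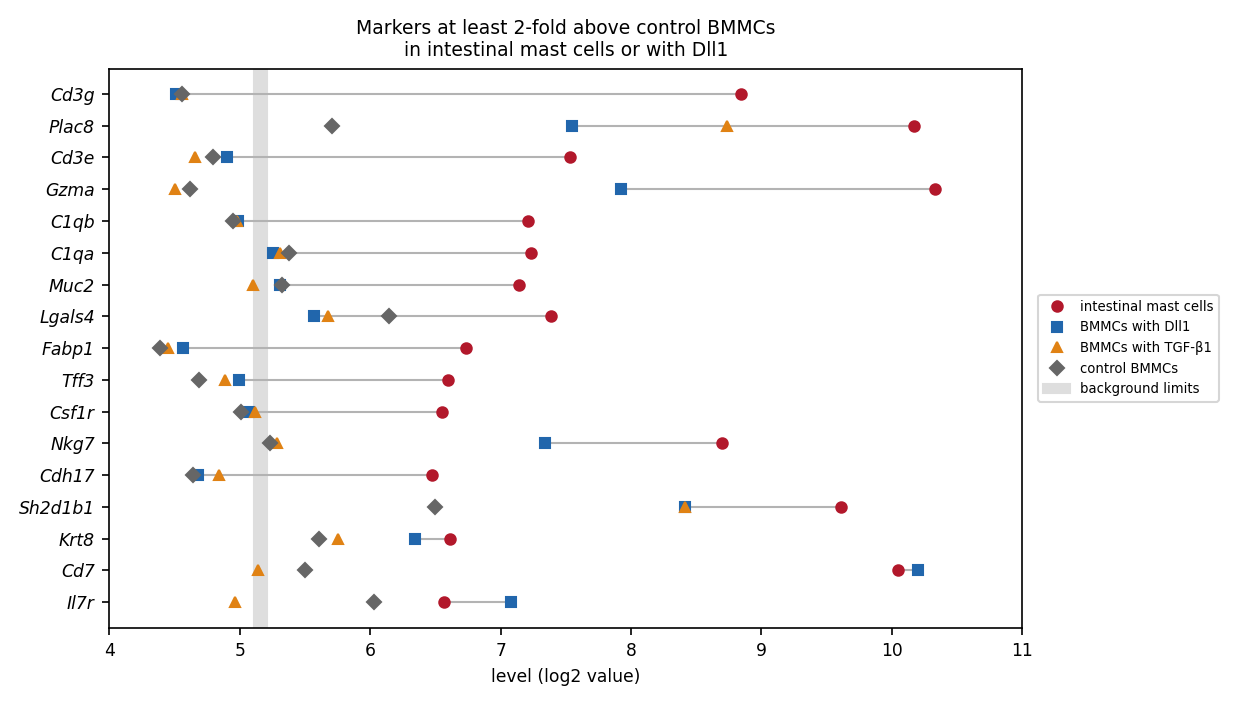
Level (log2 value, horizontal axis) on the 4 arrays of the 17 markers at least 2-fold over control BMMCs in intestinal mast cells or with Dll1, ordered by the intestinal minus Dll1 difference; grey lines join the Dll1 and intestinal points and the band spans the background limits. Cd7 and Il7r lie at the bottom with the Dll1 point to the right of the intestinal one, and Cd3g lies at the top with all cultures under the limit.

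Longer lists of the same cell types had smaller shares of genes past 2-fold in intestinal mast cells. Of 43 other measured T and innate lymphoid genes, 9 were higher in intestinal mast cells than in the control and 1 was lower. Over all genes these shares were 2.57% and 3.86%. None was higher with Dll1, against 0.942% of all genes, and 1 was with TGF-beta1, against 0.275%. That gene was Eomes, a transcription factor of cytotoxic lymphocytes, at 7.07 against 5.89 in the control. Xcl1, a chemokine of cytotoxic lymphocytes, read 7.49 in intestinal mast cells, against 5.11 with Dll1, 4.98 with TGF-beta1 and 4.79 in the control. Cd8b1, the beta chain of the CD8 coreceptor, read 7.31, against 5.01, 5.11 and 4.96 in the same cultures. Cd8a, the alpha chain, named after its values were seen, read 5.94, at least 1.77-fold over the control, and was not called. Ctsw, cathepsin W of cytotoxic cells, read 7.38 in intestinal mast cells and 5.72 with Dll1, against 5.14 with TGF-beta1 and 5.03 in the control. The other genes called higher were Cd5, Ubash3a, Sh2d2a, Ncr1, Gzmk and Il2rb, named after their values were seen. They read 6.20 to 7.18 in intestinal mast cells. Several genes in that list were high in every culture, such as Gzmb, granzyme B, at 11.77 in intestinal mast cells, 12.19 with Dll1, 11.17 with TGF-beta1 and 11.70 in the control. Gzmb is named here after its values were seen. Of the 43 genes, 29 were above the limit in intestinal mast cells, 13 with Dll1, 11 with TGF-beta1 and 16 in the control. Over all genes the shares were 54.7%, 55.6%, 50.7% and 52.6%. Cd2, Cd28, Sh2d1a, Klrd1, Klrk1, Ifng and Ccr9, also named after their values were seen, were below it on every array. Cd4 and Trat1, named likewise, each read 5.32 in intestinal mast cells and were below the limit in the control. Each was at least 1.15-fold over the control and was not called. The 1 lower gene was Il18r1, an interleukin-18 receptor chain, at 5.16 in intestinal mast cells, 6.09 with Dll1, 6.91 with TGF-beta1 and 7.60 in the control.

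Of 45 other epithelial genes, 4 were higher in intestinal mast cells than in the control and 1 was lower, against 2.57% and 3.86% of all genes. Pigr, which carries IgA across epithelium, read 7.30 in intestinal mast cells, against 4.98 with Dll1, 4.96 with TGF-beta1 and 4.99 in the control, and Fcgbp, a goblet cell mucus protein, read 6.63, against 5.01, 5.10 and 4.84. Cdh1, E-cadherin, was also above control with TGF-beta1, at 10.12 in intestinal mast cells, 6.32 with Dll1, 7.57 with TGF-beta1 and 6.16 in the control. Guca2a, named after its values were seen, read 6.46 in intestinal mast cells, 6.32 with Dll1, 5.59 with TGF-beta1 and 5.41 in the control. Its intestinal excess over the control was 2.06-fold. The absorptive and goblet cell genes that follow, also named after their values were seen, did not pass. Sis, Lct, Apob, Slc5a1, Slc15a1 and Spink4 were below the limit on every array. Apoa1, Apoa4, Alpi, Rbp2, Zg16, Agr2 and Clca1 were above it in intestinal mast cells at 5.29 to 6.05, and none was called higher than the control. For Apoa4, Zg16, Agr2 and Clca1 the control was below the limit, so these folds are bounds. Agr2 read 5.85 against 4.34 in the control, at least 1.67-fold, and Clca1 6.05 against 4.79, at least 1.91-fold. Anpep, aminopeptidase N of brush border and myeloid cells, ran the other way, at 8.0 in intestinal mast cells, 11.91 with Dll1, 11.21 with TGF-beta1 and 12.01 in the control.

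Of 34 other macrophage and dendritic cell genes, 5 were higher in intestinal mast cells and 3 lower than in the control. Over all genes these shares were 2.57% and 3.86%. Mpeg1, a pore-forming protein of macrophages, read 7.57 in intestinal mast cells, against 4.99 with Dll1, 5.22 with TGF-beta1 and 5.03 in the control. Itgax, the CD11c integrin chain of dendritic cells and some gut lymphocytes, read 11.19, against 5.27, 5.22 and 4.86. The lectin Cd209a read 6.55 in intestinal mast cells, 7.96 with Dll1, 9.50 with TGF-beta1 and 9.13 in the control. Cybb, the NADPH oxidase chain of phagocytes, read 7.14 in intestinal mast cells, 6.18 with Dll1, 5.18 with TGF-beta1 and 5.04 in the control, and Ly6c2 of monocytes read 5.95, 6.26, 6.91 and 7.36. Itgam and Ctss, also called higher and named after their values were seen, read 7.19 and 7.69 in intestinal mast cells and 5.50 and 6.65 in the control. Adgre1, Fcgr1 and Mertk, which define tissue macrophages, were likewise named after their values were seen. They read 6.21, 5.58 and 6.07 in intestinal mast cells and 5.71, 5.42 and 5.27 in the control, with no difference of 2-fold.

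Of 14 B and plasma cell genes, 3 were higher in intestinal mast cells than in the control, against 2.57% of all genes. Among them was Jchain, which joins secreted IgA. It read 6.99 in intestinal mast cells, against 4.53 with Dll1, 4.46 with TGF-beta1 and 4.61 in the control. Ighm, the IgM heavy chain, for which the brightest of several probe sets is given, read 10.76 in intestinal mast cells, 7.46 with Dll1, 7.06 with TGF-beta1 and 6.17 in the control. Cd22, a B cell receptor inhibitor, read 6.31, 4.99, 5.00 and 5.15 on the same arrays. The rest of this list, named after the values were seen, was not called. Ms4a1, Ebf1, Blk, Fcer2a and Cr2 were below the limit on every array. Cd79a, Cd79b, Pax5, Fcrla, Pou2af1 and Mzb1 were above it in intestinal mast cells, at 5.22 to 5.78. The part of these other-cell genes in the levels of the 31 markers was not tested.

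**Figure D4:**
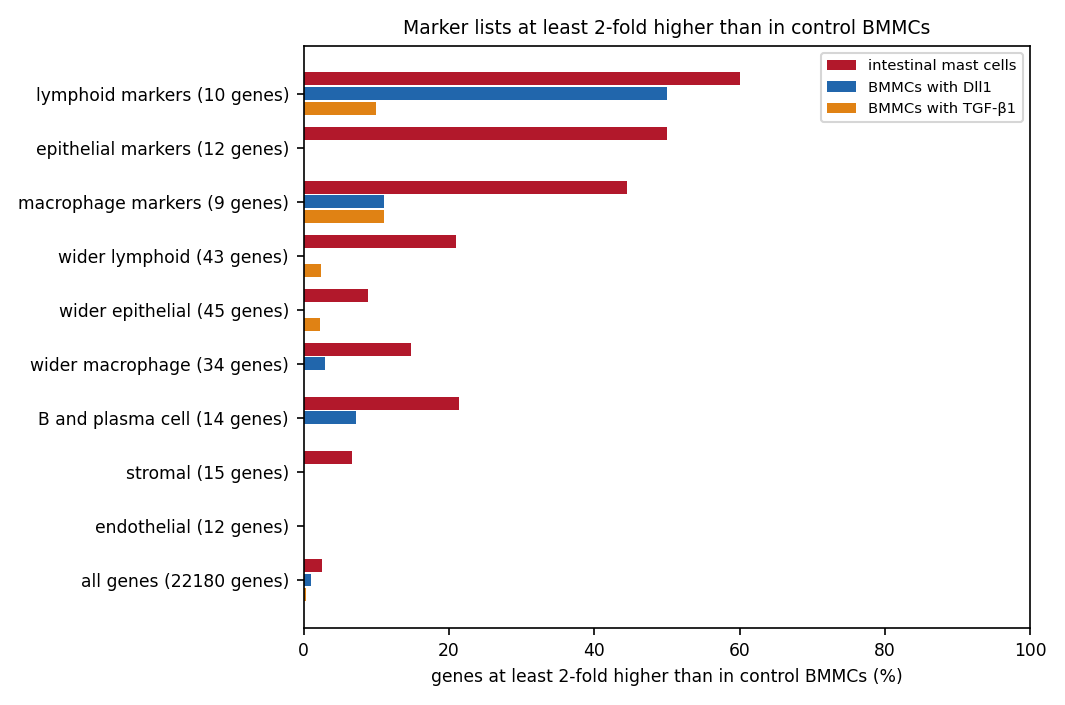
Share of the measured genes of each list (vertical axis, with their number) that were at least 2-fold higher than in control BMMCs (percent, horizontal axis), for intestinal mast cells, BMMCs with Dll1 and BMMCs with TGF-beta1, 1 array each. The lymphoid markers have 6 of 10 genes past 2-fold in intestinal mast cells and 5 of 10 with Dll1, while no epithelial marker passes in either culture; the all-genes bars mark 2.57%, 0.942% and 0.275%.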

How the data were processed

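RNA was measured on Affymetrix GeneChips in 4 preparations, 1 array each; per the labels' protocols, 2 ng of RNA went into each amplification and labelling. The table the authors deposited holds log2 values (4.13 to 13.14) for 33793 probe sets. The summarisation, the normalization and any genome build: not given in the sources used here. Sorted values differed between arrays by 0.06 on average and 0.25 at most, so the arrays had been scaled together, and nothing further was applied. Values have a floor just above 4, which shrinks the folds of dim genes; there is no depth as in sequencing, and precision is limited by having 1 array a group.

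Symbols came from the platform annotation: 23521 probe sets had 1 symbol, 1814 several and 8458 were not listed there. Of several probe sets of a gene, the one with the highest mean was used (1082 genes). Differences, background limits and calls were computed in Python 3.11.15 with pandas 2.3.3 and NumPy 2.4.6, for 5 comparisons over all 22180 genes. The size rule was run on simulated data with changes set past 2-fold. That run checks the code only and cannot gauge the error of these arrays. Shares called are over all 22180 genes. The rule for named genes took all markers, Kit, Fcer1a, Ms4a2 and Cpa3, and, from each of 9 other lists, up to 4 called genes with the largest differences in a comparison, given here for those with the control; other names are marked. The members and lists were chosen with earlier results of these data known. Alternatives were other array scalings, limits, folds, probe set means and 16 taken off the linear values.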

Additional observations from a re-analysis of the deposited data

How the results depend on the processing

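With 1 array a group no replicate could be left out. No paired analysis was possible because each group has 1 array. The number of markers higher than control stayed within 1.5 times of 16 for intestinal mast cells, 6 for Dll1 and 2 for TGF-beta1 under all 7 alternatives. Markers lower with TGF-beta1 than in the control were 0, or 1 (Il7r) with no background limit or with the offset of 16 subtracted. At a 3-fold limit, 9 markers were higher in intestinal mast cells than with Dll1 and 9 than with TGF-beta1, against 14 and 16 at 2-fold. Over all genes, a 3-fold limit gave 254 higher and 320 lower for intestinal minus control (569 and 857 at 2-fold), 85 and 42 for Dll1 minus control (209 and 227), and 21 and 25 for TGF-beta1 minus control (61 and 107). It gave 165 and 203 for intestinal minus Dll1 (464 and 539) and 247 and 226 for intestinal minus TGF-beta1 (509 and 572). Subtracting the offset gave 360 and 394 for Dll1 minus control and 110 and 184 for TGF-beta1 minus control. A stricter fold calls fewer genes by construction, and the offset widens the folds of dim genes. Of 155 marker differences, 31 in each of 5 comparisons, no called one changed sign under any alternative; 14 lost their call with the limit at the 99th percentile, 18 at 3-fold and 2 with array medians subtracted, while 9 gained one with no limit and 11 with the offset. None lost or gained one with quantile normalization or probe set means. Under the limit a difference is not measured, which holds for 6 of the 31 markers on every array.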

Other observations

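Lists of cells that were not among the markers gave mixed values. Of 15 stromal genes, Thy1 among them, 1 was higher in intestinal mast cells than in control BMMCs, against 2.57% of all genes. It was Pdgfrb, a growth factor receptor of pericytes and fibroblasts. Pdgfrb read 8.39 in intestinal mast cells, 6.37 with Dll1, 5.46 with TGF-beta1 and 5.62 in the control. The collagens Col1a1, Col1a2 and Col3a1, named after their values were seen, read between 5.05 and 5.42 in intestinal mast cells and between 5.03 and 5.56 in the control. Of 12 endothelial genes, none was higher in intestinal mast cells than in the control and 2 were lower, against 2.57% and 3.86% of all genes. Tek, the angiopoietin receptor, read 5.98 in intestinal mast cells, 6.12 with Dll1, 7.46 with TGF-beta1 and 8.10 in the control, and Vwf, von Willebrand factor, read 5.12, 6.45, 6.08 and 7.23. None of the 6 measured enteric neuron and glia genes or the 3 measured erythroid genes reached 2-fold in any comparison. Of all genes, 0.275% to 3.86% were called in each direction of a comparison.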
